A study of Homo sapiens with 3 samples.

Results

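The genes that write, keep, read and remove DNA methylation were measured in CAMA1, a long-established line of estrogen receptor-positive human breast cancer cells, labelled FGFR1-amplified and used at low passage. The 9 genes were DNMT1, DNMT3A, DNMT3B, UHRF1, MBD2, TET1, TET2, TET3 and TDG. They were taken from the deposited count table by an exact match of the gene name, and all 9 were found among 26485 entries. The series has 1 group of 3 poly-A RNA libraries, given as biological replicates of control cells held for 48 h in estradiol-free medium, with no treated group. Levels therefore describe this line in this state, and errors are SD over the 3 libraries (n = 3) throughout.

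DNA methylation in mammals is the addition of a methyl group to cytosine, mostly where guanine follows (CpG). DNMT3A and DNMT3B place new methyl groups, and DNMT1 copies them to the daughter strand after replication, when UHRF1 recognises hemimethylated sites and recruits it. TET1, TET2 and TET3 oxidise the methyl group, TDG cuts out the oxidised bases for repair, and MBD2 binds methylated CpG and recruits a repressor complex. In breast cancer this system is known for silencing genes through promoter methylation. Methylation itself was not measured in these libraries.

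The libraries held 26473939, 26592335 and 30745412 counts in replicates 1, 2 and 3. The labelled cell type was seen in its markers: all 8 luminal genes were above 10 TPM, with KRT19 at 3256 ± 605 TPM, KRT8 at 2470 ± 140 TPM and XBP1 at 1524 ± 135 TPM, while basal genes were low (median over 5, 0.682 TPM), led by KRT17 at 8.25 ± 0.409 TPM, KRT14 at 1.48 ± 0.335 TPM and TP63 at 0.682 ± 0.195 TPM. TPM is a count divided by gene length and scaled to the same total in every library. Of 8 immune, endothelial, fibroblast and adipocyte markers only CD68 reached the 10 counts per library that define detection here, at 3.08 ± 0.470 TPM. VWF stood at 0.103 ± 0.0389 TPM and PECAM1 at 0.0369 ± 0.0396 TPM, and the fibroblast genes COL1A2 and DCN had no counts. Replicate 3 stood apart from the others: 6017 of 14453 genes tested (41.6%) varied between the 3 libraries beyond counting error, and 1180 genes did so between replicates 1 and 2 alone. Between replicates 2 and 3 there were 4752 such genes, and between replicates 1 and 3 there were 5453. Counts of genes that varied are therefore given below with and without replicate 3, to be read beside these counts over all genes.

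All 9 genes of the methylation machinery were detected, 8 of them with a mean of at least 13.7 TPM and TET1 with a mean of 0.537 TPM. The highest was TDG, the glycosylase, and the order below it was DNMT1, DNMT3B, TET3, DNMT3A, MBD2, TET2, UHRF1 and TET1. Their median was 33.5 TPM, against 1.5 TPM over all entries of the table and 22.1 TPM over the 14529 detected entries (54.9% of all). By mean TPM, TDG exceeded 93.1% of all entries and DNMT1 83.8%, whereas TET1 exceeded 43.8% of all entries and 3.48% of detected ones.

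**Figure D1:**
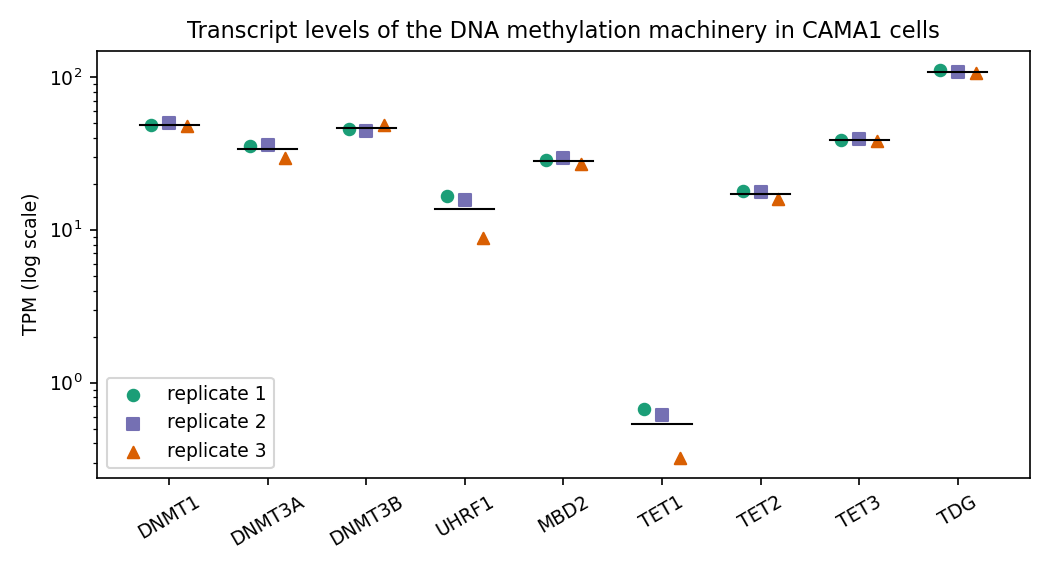
TPM on a log axis for each of the 9 genes in the 3 replicates, with the mean as a bar. TDG lies between 106 and 111 TPM, TET1 below 1 TPM, and UHRF1 and TET1 show a low replicate 3.

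The methyltransferase genes stood close together. DNMT1, the maintenance enzyme gene (chromosome 19, 10133346 to 10195079, minus strand, hg38), had 48.2, 49.8 and 47.9 TPM in replicates 1, 2 and 3, on 2579, 2685 and 3035 counts. DNMT3B (chromosome 20, 32762385 to 32809356, plus strand) had 45.7, 44.2 and 48.2 TPM on 2098, 2044 and 2621 counts. The ranges of these genes overlapped, so DNMT1 and DNMT3B did not differ beyond the spread between libraries.

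DNMT3A, the other gene for an enzyme of new methylation (chromosome 2, 25232961 to 25342590, minus strand), had 35.4, 35.8 and 29.5 TPM on 1985, 2022 and 1961 counts. It lay below both DNMT1 and DNMT3B in each library. The log2 ratio of TPM was 0.54 ± 0.14 for DNMT1 over DNMT3A, 0.08 ± 0.09 for DNMT1 over DNMT3B and −0.46 ± 0.22 for DNMT3A over DNMT3B. The ratio against DNMT3A had the same sign in 3 of 3 libraries in both cases. A sign-flip permutation test over libraries (exact, two-sided) gave p = 0.25, the smallest that 3 libraries allow, and 0.278 after Benjamini-Hochberg adjustment over 10 ratios, so no ratio in these data could pass 0.05. DNMT1 over DNMT3B had p = 0.5 in the same exact permutation test.

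DNMT1 made up 37.9 ± 0.575%, DNMT3B 35.9 ± 2.22% and DNMT3A 26.1 ± 2.29% of the summed DNMT level of 128 ± 2.33 TPM. Gene length matters for this order. With exon lengths from GENCODE 29 in place of the deposited ones, DNMT1 stood at 36.7 TPM, DNMT3A at 21.6 TPM and DNMT3B at 63.0 TPM, and the log2 ratio of DNMT1 over DNMT3B turned to −0.78. GENCODE gives DNMT1 1.81 times and DNMT3A 2.12 times the deposited length, and DNMT3B the same length in both. The DNMT3B TPM moved nevertheless, because TPM is scaled to a fixed total over all genes and the lengths of others changed. The counts were deposited with their own exon intervals, so a longer GENCODE length takes in bases outside those intervals. Levels with GENCODE lengths, here and below, show how far an order depends on length and are not a second measurement.

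Relatives of these enzymes were low. DNMT3L, a cofactor of the de novo enzymes that is mainly active in germ cells, had 1, 2 and 1 counts, which is under the floor of 3 counts per library and too few to call it expressed. TRDMT1, which methylates transfer RNA despite its sequence likeness to the DNMT genes, stood at 1.61 ± 0.353 TPM.

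The dioxygenase genes differed far more among themselves. TET3 (chromosome 2, 73986404 to 74108175, plus strand) had 38.6, 39.2 and 38.1 TPM in replicates 1, 2 and 3. TET2 (chromosome 4, 105145875 to 105279803, plus strand) had 18.04, 17.5 and 15.9 TPM. TET1 (chromosome 10, 68560360 to 68694482, plus strand) had 0.674, 0.617 and 0.320 TPM.

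The ranges of the TET genes did not overlap, and their order was the same in each library. TET3 made up 68.6 ± 1.44%, TET2 30.4 ± 1.13% and TET1 0.947 ± 0.314% of the summed TET level of 56.3 ± 1.74 TPM. TET3 exceeded TET2 2.25-fold and TET1 74.2-fold, and TET2 exceeded TET1 32.9-fold. The log2 ratios were 1.17 ± 0.08, 6.21 ± 0.56 and 5.04 ± 0.48, each positive in 3 of 3 libraries (exact sign-flip permutation p = 0.25 for each). Because TET1 was so low, its ratios depend on the constant added, here 0.01 TPM. With 1 TPM added the log2 ratio was 4.70 for TET3 over TET1 and 3.57 for TET2 over TET1.

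TET1 rested on 64, 59 and 36 counts. The exact Poisson 95% intervals were 49.3 to 81.7, 44.9 to 76.1 and 25.2 to 49.8 counts, and they cover counting error only. In TPM the upper bound in replicate 1 was 0.861, still far below the lowest TET2 value of 15.9 TPM.

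**Figure D2:**
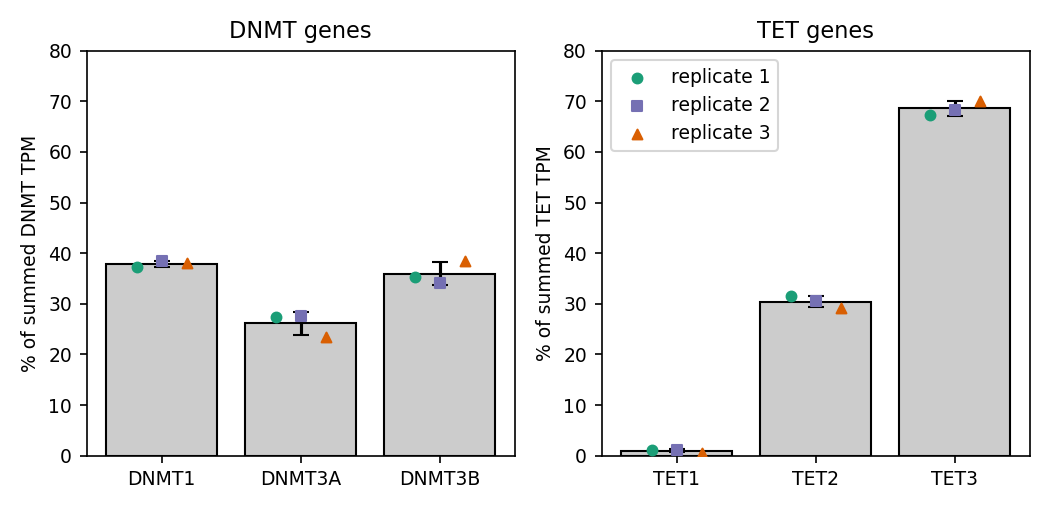
Percent of the summed TPM of the DNMT genes (left) and of the TET genes (right), as mean bars with SD over 3 libraries and a point per replicate. The DNMT shares run from 26.1% to 37.9%, while TET3 holds 68.6% and TET1 0.947% of the TET sum.

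The promoter windows of TET1 and TET2 are shown because these are the TET windows that begin at the table's own first exon, within 50 bases, and the genes lie far apart in level. They are RefSeq windows on GRCh38.p14, from 250 bases before to 50 after the annotated start, printed 5′ to 3′ on the gene's strand with each CpG in capitals. TET1 is chr10:68560087-68560386, plus strand, and TET2 is chr4:105145625-105145924, plus strand.
TET1: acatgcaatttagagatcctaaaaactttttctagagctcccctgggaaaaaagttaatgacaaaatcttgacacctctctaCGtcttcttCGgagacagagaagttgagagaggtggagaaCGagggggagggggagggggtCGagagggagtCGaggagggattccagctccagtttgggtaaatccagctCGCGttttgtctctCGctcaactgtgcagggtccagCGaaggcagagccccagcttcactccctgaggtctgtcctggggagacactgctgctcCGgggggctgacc
TET2: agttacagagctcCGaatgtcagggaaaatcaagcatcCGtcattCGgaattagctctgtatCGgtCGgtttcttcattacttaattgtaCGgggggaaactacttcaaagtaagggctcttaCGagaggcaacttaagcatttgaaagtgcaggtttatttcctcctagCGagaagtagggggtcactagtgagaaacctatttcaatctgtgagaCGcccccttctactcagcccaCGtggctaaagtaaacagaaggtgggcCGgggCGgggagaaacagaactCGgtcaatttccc
The TET1 window holds 10 CpG and the TET2 window 13, both below the median of 14 over 35116 windows. A second TET2 window, whose start lies 1001 bases from the first exon's start, held 35 CpG, and the 3 TET1 windows held 6 to 11. Which start was used was not measured. Whether these CpG were methylated was not measured.

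All 9 genes had entries in the promoter table, with 20 windows in all, of which 15 held more CpG than the median. UHRF1 had 3 windows with 36 to 46 CpG, and TET3 2 windows with 33 to 45. The 6 windows of DNMT3A held 18 to 46 CpG, the 1 window of MBD2 32, that of DNMT1 30 and that of TDG 22. TET1 was the lowest of the genes with several windows, at 6 to 11 CpG, and the second TET2 window held 35. The DNMT3B window held 3 CpG but lies 17467 bases from the start of the gene's first exon in the count table, so other starts of DNMT3B were not analysed here.

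**Figure D3:**
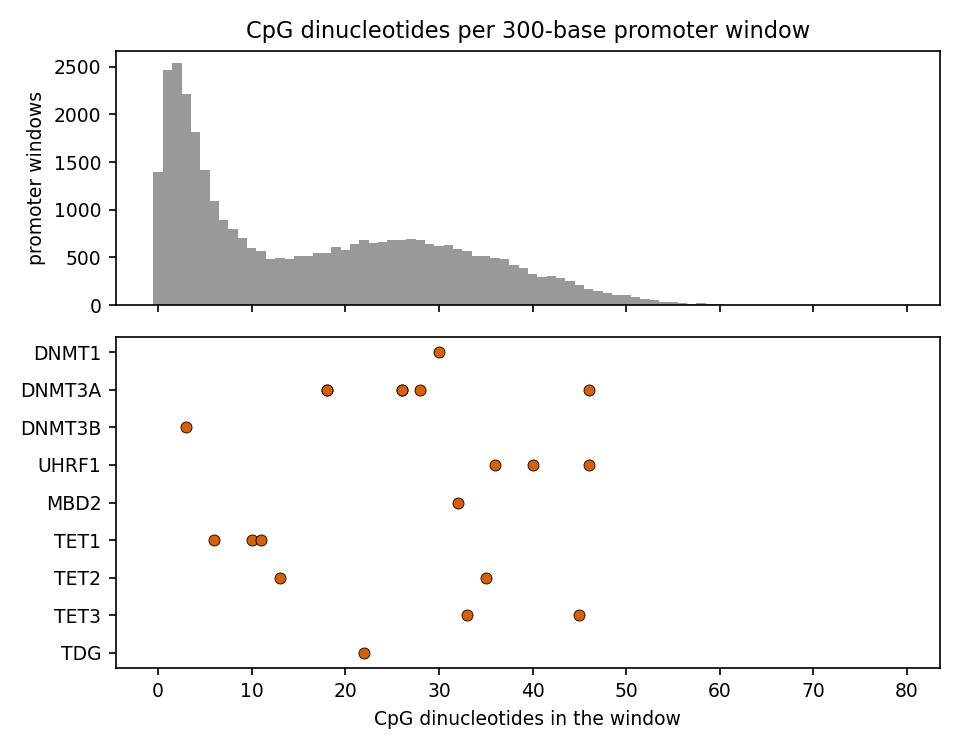
Number of CpG dinucleotides per 300-base window, as a histogram over 35116 RefSeq windows (top) and as a point per window for the 9 genes (bottom). The UHRF1 windows lie at 36 to 46 CpG and the TET1 windows at 6 to 11, against a median of 14.

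TDG, which excises thymine from mismatches and the oxidised bases made by TET enzymes, had the highest level of the 9 in TPM. TDG (chromosome 12, 103965815 to 103988878, plus strand) had 111, 107 and 106 TPM on 3556, 3474 and 4019 counts. Its range did not overlap that of any of the other 8 genes. TDG stood 1.77-fold above MBD4, the other thymine glycosylase of methylated sites (60.8 ± 1.71 TPM; log2 ratio 0.83 ± 0.05, positive in 3 of 3 libraries, exact sign-flip permutation p = 0.25). GENCODE lists a processed pseudogene, TDGP1, and another of TET1, TET1P1. How reads with several matches were placed is not given in the sources used here, so the TDG and TET1 levels carry that uncertainty.

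MBD2 (chromosome 18, 54151601 to 54224788, minus strand) had 28.6, 29.7 and 26.7 TPM on 1591, 1662 and 1762 counts. Its highest value overlapped the lowest of DNMT3A, its neighbour in the order. With GENCODE lengths MBD2 averaged 37.5 TPM and stood above DNMT1 and DNMT3A.

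UHRF1, the recruiter of DNMT1, was lower than its partner and uneven between libraries. UHRF1 (chromosome 19, 4903080 to 4962154, plus strand) had 16.5, 15.6 and 8.84 TPM on 851, 809 and 539.5 counts. Replicate 3 lay far below the other two, although it was the most deeply sequenced library. UHRF1 over DNMT1 had a log2 ratio of −1.88 ± 0.48, and UHRF1 over UHRF2, a relative that does not replace it in maintenance (35.7 ± 1.91 TPM), −1.44 ± 0.55. Both ratios were negative in 3 of 3 libraries (exact sign-flip permutation p = 0.25). With GENCODE lengths they were −1.01 and −0.01, so that UHRF1 stayed below DNMT1 but stood level with UHRF2.

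Across all 36 pairs of the 9 genes, 33 had ranges of TPM that did not overlap. The other 3 pairs were DNMT1 with DNMT3B, DNMT3A with MBD2, and TET2 with UHRF1. With GENCODE lengths 32 pairs were separate, and TDG stayed highest and TET1 lowest. On CPM, counts scaled to library size alone without division by length, 35 pairs were separate, and TET3 at 166 CPM stood above TDG at 132 CPM and TET2 at 99.1 CPM. The summed DNMT level exceeded the summed TET level 2.28-fold (log2 ratio 1.19 ± 0.02, positive in 3 of 3 libraries, exact sign-flip permutation p = 0.25). On CPM this log2 ratio was −0.09.

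UHRF1 was the gene of this set whose replicates differed most clearly. On CPM with TMM scaling it had 31.8, 30.4 and 17.8 CPM in replicates 1, 2 and 3, a ratio of 1.79 between highest and lowest. This variation passed the negative binomial test in edgeR, which sets a gene against the spread of genes of like abundance (adjusted p = 0.00245), and only UHRF1 of the 9 did so, against a background of 1.31% of 14453 genes tested. UHRF1 and TET1 had an unadjusted p under 0.05, where 878 of the 14453 genes tested did. The adjusted p of UHRF1 was 0.0464 without replicate 1, 0.0817 without replicate 2 and 0.999 without replicate 3.

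TET1 had 2.39, 2.22 and 1.18 CPM, the largest ratio of the set at 2.02, again with replicate 3 lowest. At these few counts it passed the test against Poisson counting error (edgeR adjusted p = 0.00326) but not the negative binomial test (adjusted p = 0.681). DNMT3A, with 74.3, 76.1 and 64.5 CPM, and TET2, with 102, 101 and 94.0 CPM, also passed the Poisson test with replicate 3 lowest (adjusted p = 8.67e-07 and 0.00806). DNMT3B passed it in the other direction, with 78.5, 76.9 and 86.2 CPM and replicate 3 highest (adjusted p = 0.000644).

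The remaining 4 genes did not pass either test. DNMT1 had 96.5, 101 and 99.8 CPM, TET3 163, 168 and 168 CPM, TDG 133, 131 and 132 CPM, and MBD2 59.5, 62.5 and 58.0 CPM, with Poisson adjusted p of 0.335, 0.393, 0.831 and 0.151 in edgeR. In all, 5 of the 9 varied beyond counting error, near the 41.6% of all genes tested, so that number says nothing particular about these genes. Of the 9, 4 varied and were lowest in replicate 3, against 18.7% of all genes tested. Without replicate 3 none of the 9 passed, and none had an unadjusted p under 0.05 in either test.

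**Figure D4:**
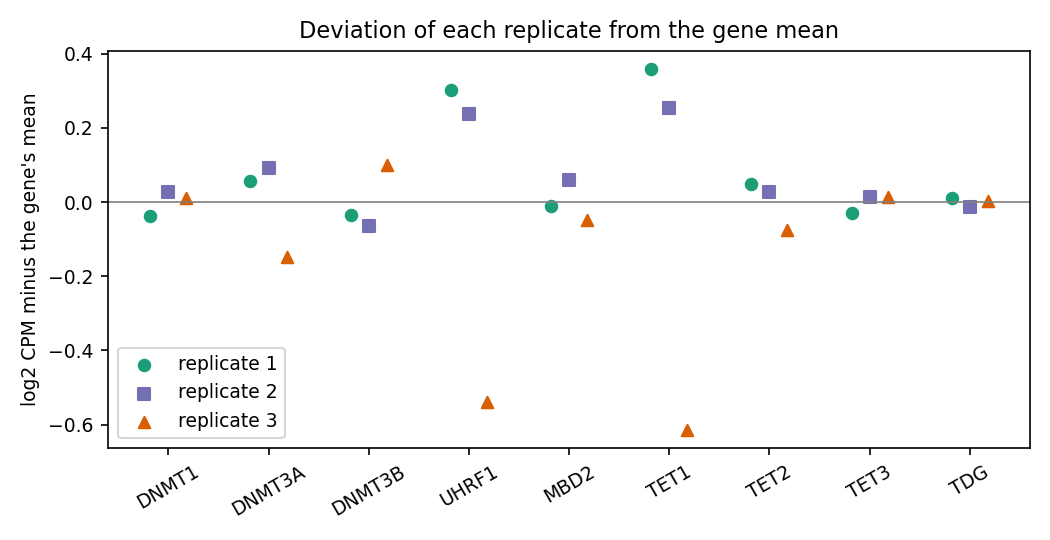
log2 CPM of each replicate minus the gene's mean, for the 9 genes. UHRF1 and TET1 have replicate 3 far below the others, DNMT3B has it above, and DNMT1, TET3 and TDG lie close to 0 in all replicates.

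The UHRF1 and DNMT1 promoters are shown because these partners in maintenance behaved differently between libraries, and genes needed in S phase are known for sites of the E2F factors. E2F-type words were searched on both strands as TTTCCCGC, TTTCGCGC, TTTGCCGC and TTTGGCGC, which differ only in their middle letters, and no matches overlapped. Any of the 4 words was present in 3.31% of all 35116 windows. Each word contains a CpG, and the windows printed here held 36, 40 and 30 CpG, against the median of 14. The share among windows of like CpG content was not counted. The RefSeq windows on GRCh38.p14 are chr19:4909251-4909550 (UHRF1 window A) and chr19:4909894-4910193 (UHRF1 window B), both plus strand, and chr19:10194904-10195203 (DNMT1), minus strand, with the matched letters in capitals.
UHRF1 window A: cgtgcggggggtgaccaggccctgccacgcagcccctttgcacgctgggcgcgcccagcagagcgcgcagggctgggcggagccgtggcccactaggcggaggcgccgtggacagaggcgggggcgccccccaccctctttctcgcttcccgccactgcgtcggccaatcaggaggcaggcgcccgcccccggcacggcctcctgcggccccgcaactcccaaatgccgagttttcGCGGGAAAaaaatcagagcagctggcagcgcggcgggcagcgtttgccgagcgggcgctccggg
UHRF1 window B: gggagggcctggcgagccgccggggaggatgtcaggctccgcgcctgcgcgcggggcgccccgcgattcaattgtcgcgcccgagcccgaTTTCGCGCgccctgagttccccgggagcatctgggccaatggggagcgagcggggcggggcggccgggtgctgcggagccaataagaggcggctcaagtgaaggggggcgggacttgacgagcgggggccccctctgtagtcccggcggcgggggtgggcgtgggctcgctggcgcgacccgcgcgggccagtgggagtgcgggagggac
DNMT1: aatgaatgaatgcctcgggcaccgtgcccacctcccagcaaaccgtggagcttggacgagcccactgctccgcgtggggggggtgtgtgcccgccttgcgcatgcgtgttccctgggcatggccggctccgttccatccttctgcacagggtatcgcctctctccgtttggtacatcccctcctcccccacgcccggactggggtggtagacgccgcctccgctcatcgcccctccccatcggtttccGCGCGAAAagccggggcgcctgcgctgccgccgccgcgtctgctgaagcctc
In UHRF1 the match in window A is TTTCCCGC on the opposite strand, 14 bases before the annotated start, and that in window B is TTTCGCGC, 160 bases before another start. These starts lie 6421 and 7064 bases from the start of the first UHRF1 exon in the count table, and which start was used was not measured. DNMT1 holds TTTCGCGC on the opposite strand, beginning 2 bases before its start. No other window of the 9 genes held any of the words, and a match in letters does not show that a factor was bound. The third UHRF1 window, whose start lies at an exon edge in the count table, was among those without a match. Of the UHRF1 and DNMT1 windows, only those with a match were printed. Any part of E2F factors in the UHRF1 variation was not tested.

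Genes that work with UHRF1 and DNMT1 at the replication fork were in part lower in replicate 3 as well. HELLS, a remodelling ATPase needed for methylation of compact chromatin, had 12.7, 11.2 and 6.85 TPM in replicates 1, 2 and 3. CDCA7, its zinc finger partner, had 8.12, 7.24 and 3.64 TPM. LIG1, the ligase of lagging-strand synthesis, had 20.5, 19.9 and 13.7 TPM.

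HELLS, CDCA7 and LIG1 were each lowest in replicate 3. USP7, a deubiquitinase that stabilises UHRF1 and DNMT1, stood at 108 ± 4.34 TPM, the sliding clamp gene PCNA at 100.2 ± 12.8 TPM, and DMAP1, which binds DNMT1, at 31.2 ± 1.53 TPM. All 7 genes of this list were detected, with a median of 31.2 TPM. Of the 7, 5 varied beyond Poisson counting error, against 41.6% of all genes tested. HELLS, CDCA7, LIG1 and PCNA did so with replicate 3 lowest, 4 of 7 against 18.7% of all genes, and UHRF2 with replicate 3 highest. None passed the negative binomial test in edgeR, where 3 had an unadjusted p under 0.05, against 878 of 14453 genes tested. Without replicate 3 none passed the Poisson test. With GENCODE lengths UHRF2 stood at 18.3 TPM, HELLS at 4.61 TPM and DMAP1 at 13.5 TPM.

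Genes of S phase and of mitosis had their lowest value in replicate 3 without exception. All 12 S phase genes did so, where 39.8% of all genes tested did, and 11 varied beyond Poisson counting error, against 41.6%. MCM3, a subunit of the replicative helicase, had 105, 102 and 68.8 TPM, MCM7 75.9, 71.6 and 52.4 TPM, and MCM4 53.4, 52.6 and 48.1 TPM. MCM2, MCM3, MCM5, CDC6, RRM2 and CCNE2 passed the negative binomial test in edgeR, with adjusted p between 0.000238 for MCM2 and 0.0283 for MCM3. They are 6 of 12, against 1.31% of all genes tested.

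All 10 genes of G2 and mitosis were lowest in replicate 3 and varied beyond Poisson counting error (41.6% of all genes did), with TOP2A at 59.8, 57.4 and 40.3 TPM, CCNB1 at 55.4, 57.1 and 38.4 TPM and CDC20 at 27.1, 27.7 and 14.1 TPM. CDC20 and the proliferation marker gene MKI67 passed the negative binomial test in edgeR (adjusted p = 0.0148 and 0.0173), 2 of 10 against 1.31% of all genes. Without replicate 3, 2 of the 12 S phase genes and 1 of these 10 passed the Poisson test, against 1180 over all genes. The negative binomial test called 2, 1 and 0 of the S phase genes without replicate 1, 2 and 3, and 0 of these 10 in each case. Over all genes it called 94, 67 and 25 in the same settings. On CPM with TMM scaling, 5 of the 9 genes were lowest in the same library as the cell cycle genes, against 39.8% of all genes tested. They were UHRF1, TET1, DNMT3A, TET2 and MBD2. DNMT1 was lowest in replicate 1 on that scale but in replicate 3 in TPM, at 48.2, 49.8 and 47.9 TPM. TET3, at 38.6, 39.2 and 38.1 TPM, and TDG, at 111, 107 and 106 TPM, were likewise lowest in replicate 3 in TPM alone. In TPM all of the 9 genes but DNMT3B were lowest in replicate 3, and the 39.8% applies to the CPM scale only. Of the 8 luminal genes, 7 were highest in replicate 3 on CPM with TMM scaling, where 5745 of 14451 genes counted by name were. KRT19 had 2719, 3137 and 3912 TPM, whereas ESR1 in TPM was highest in replicate 2, at 29.4, 30.7 and 30.2. Fewer cells in cycle and less RNA per cell cannot be told apart in bulk RNA, and the part of the cell cycle in the UHRF1 and TET1 values was not tested.

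**Figure D5:**
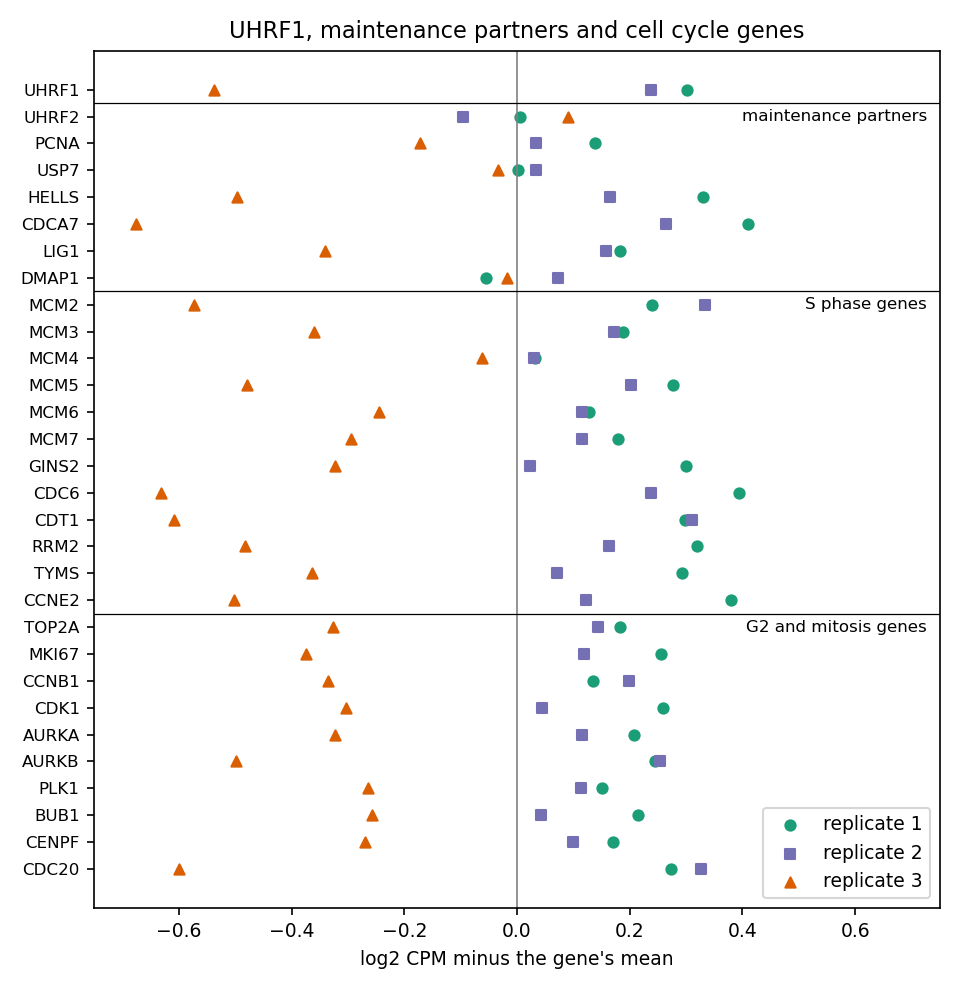
log2 CPM of each replicate minus the gene's mean, for UHRF1, 7 maintenance partners, 12 S phase genes and 10 genes of G2 and mitosis. Replicate 3 is the lowest point for UHRF1, HELLS, CDCA7 and LIG1 and for every cell cycle gene shown, but not for UHRF2 or DMAP1.

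The genes with the pattern nearest to TET1, which had the widest range of the 9, were sought among 9999 genes of at least 10 CPM, by Euclidean distance of log2 CPM centred on each gene's mean over 3 libraries. They were OAS3 (distance 0.036), an interferon-induced gene, CDC6 (0.0414), which loads the replicative helicase, EHF (0.0443), an epithelial ETS factor, NEDD9 (0.0484), a scaffold gene, and TRIP13 (0.0529), an ATPase of the spindle checkpoint. Nearest to UHRF1, added after its values were seen, were PLK4 (0.0107), the kinase of centriole duplication, SAMD4A (0.0248), TYRP1 (0.0359), HSPB8 (0.0382) and GINS4 (0.0423), a subunit of the replicative helicase. Within a distance of 0.1 lay 18 genes for TET1 and 26 for UHRF1. With 3 libraries, such likeness describes little more than a low replicate 3.

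The other reader genes of methylated DNA described here were all detected, 6 of 6, with a median of 41.6 TPM. MBD3, a NuRD subunit that has largely lost binding to methylated CpG, led at 69.6 ± 1.96 TPM, followed by MBD4 at 60.8 ± 1.71 TPM and MBD1 at 43.8 ± 1.21 TPM. With GENCODE lengths MBD3 stood at 30.3 TPM and MBD4 at 73.7 TPM, which turns their order. Of the 6, 4 varied beyond Poisson counting error, against 41.6% of all genes tested, and 0 without replicate 3. By edgeR's negative binomial test 0 passed, where 1 had an unadjusted p under 0.05, against 878 of 14453 genes tested.

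The NuRD complex, through which MBD2 represses genes, was expressed throughout. Its 10 listed genes had a median of 67.8 TPM, with the histone-binding gene RBBP7 at 224 ± 5.40 TPM, the remodelling ATPase gene CHD4 at 141 ± 2.76 TPM and the deacetylase gene HDAC1 at 110 ± 2.22 TPM. All of them exceeded MBD2 on deposited lengths, whereas on GENCODE lengths HDAC2, at 19.8 TPM, and MTA3, at 34.5 TPM, lay below it, and RBBP7 stood at 98.8 TPM. Of the 10, 2 varied beyond Poisson counting error (CHD4 and MTA1), against 41.6% of all genes tested, with 1 without replicate 1 and 0 without replicate 3. The negative binomial test in edgeR called 0, adjusted or unadjusted at 0.05.

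Genes that serve the TET proteins ranged widely in level. IDH2, whose product makes the TET cosubstrate 2-oxoglutarate in mitochondria, stood at 359 ± 8.39 TPM, OGT, a glycosyltransferase that binds TET proteins, at 190 ± 10.3 TPM, and the cytosolic enzyme gene IDH1 at 123 ± 1.74 TPM. All 9 genes of this list were detected, with a median of 53.7 TPM, and 5 varied beyond Poisson counting error, near the 41.6% of all genes tested. Without replicate 1 there were 3 and without replicate 3 there were 2. GADD45B, a stress-induced gene linked to demethylation, had 50.4, 92.4 and 75.6 TPM with replicate 1 lowest, and was the 1 gene of the list to pass the negative binomial test in edgeR (adjusted p = 0.000589). Its adjusted p was 0.9999 without replicate 1, 0.292 without replicate 2 and 1.22e-09 without replicate 3. The dispersion was estimated anew for each of these, so the p-values do not show which libraries differed. On CPM with TMM scaling GADD45B had 25.7, 47.7 and 40.1 CPM, with replicate 1 below both others. An unadjusted p under 0.05 in that test was found for 2 genes of the list, against 878 of 14453 genes tested.

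Of the listed genes for base excision repair, which acts after TDG, 11 of 11 were detected and all were above 10 TPM. The median was 60.8 TPM, led by the endonuclease gene APEX1 at 239 ± 14.0 TPM, the polymerase gene POLB at 227 ± 9.64 TPM and PARP1, which senses strand breaks, at 161 ± 15.0 TPM. POLB stood at 101 TPM with GENCODE lengths. TDG lay above the median and below these 3 genes. Of the 11, 5 varied beyond Poisson counting error, near the 41.6% of all genes tested, and 0 without replicate 3. None passed the negative binomial test in edgeR, where 1 had an unadjusted p under 0.05, against 878 of 14453 genes tested.

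The supply of the methyl donor was led by MAT2A, which makes S-adenosylmethionine, at 334 ± 15.7 TPM, by AHCY, which removes the inhibitory by-product, at 164 ± 3.97 TPM, and by MAT2B at 97.0 ± 2.67 TPM. Of the 10 genes 9 were detected, with a median of 38.3 TPM over the list. BHMT, a liver and kidney enzyme gene, had 0, 4 and 3 counts. Of the 9 genes tested, 5 varied beyond Poisson counting error, near the 41.6% of all genes tested, and 0 without replicate 3. By edgeR's negative binomial test 0 passed, adjusted or unadjusted at 0.05.

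Among gene groups that are known targets of DNA methylation, most germline genes had few or no counts. Of 14 listed, 12 stayed at or under 3 counts per library, too few to call them expressed, as did 9247 of 26483 over all genes. Detected were 2, against 54.9% of all entries. They were SYCP3, of the meiotic chromosome axis, at 3.18 ± 0.764 TPM, and TEX101 at 1.27 ± 0.110 TPM. DDX4 was next at 0.0757 ± 0.0229 TPM. TEX101 had fractional counts in each library (19.64, 23.07 and 27.19), and GAGE1 had 0, 0.24 and 0.1 counts. How these fractions arose is not given in the sources used here, so the TEX101 and GAGE1 values carry that uncertainty. The placing of reads with several matches is not given either, so the zero counts of this list are uncertain too. Neither SYCP3 nor TEX101 varied beyond Poisson counting error, with or without replicate 3.

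Of 12 imprinted genes, 7 were detected, near the 54.9% of all entries, with a median of 0.618 TPM over the list. GRB10 stood at 90.3 ± 0.476 TPM, MEST at 66.2 ± 5.32 TPM and the antisense RNA gene KCNQ1OT1 at 5.83 ± 0.478 TPM. IGF2 and SNRPN had no counts, and the SNRPN value is uncertain because it shares sequence with SNURF. KCNQ1OT1 lies antisense within KCNQ1, and whether strand was used in counting is not given in the sources used here. Of 7 genes tested, 2 varied beyond Poisson counting error, against 41.6% of all genes tested, with 1 without replicate 1 and 1 without replicate 3. The negative binomial test in edgeR called 0, adjusted or unadjusted at 0.05.

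Of 13 genes whose promoters are often methylated in breast cancer, 8 were detected, near the 54.9% of all entries. That number therefore says nothing particular about these genes. The detected genes were led by the cadherin gene CDH1 at 89.97 ± 7.15 TPM, the repair gene MGMT at 53.7 ± 5.57 TPM and APC at 25.5 ± 0.234 TPM. GSTP1, CCND2, SFRP1, DAPK1 and HIC1 did not exceed 3 counts in any library, nor did 9247 of 26483 over all genes. Of the 8 genes tested, 4 varied beyond Poisson counting error, near the 41.6% of all genes tested, and 1 without replicate 3. None passed the negative binomial test in edgeR, where 1 had an unadjusted p under 0.05, against 878 of 14453 genes tested. Promoter methylation of these genes was not measured.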

How the data were processed

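Poly-A RNA of 3 CAMA1 libraries was sequenced on an Illumina instrument after a stranded kit, per the labels' protocols. The authors deposited expected counts per gene, with exon intervals and a gene length. TopHat, Subread and featureCounts with hg38 were used, per the submitters' processing notes; versions and settings are not given in the sources used here. On average 83.1% of non-zero values were whole (tolerance 1e-08), and how the fractions arose is not given in the sources used here; no exon base of the 9 genes lay in another entry. TPM was computed from deposited counts and lengths. For tests, counts were rounded and analysed in edgeR 4.0.16 (R 4.3.3) with TMM scaling (factors 0.990 to 1.01), its low-count filter and an intercept-only design; the deviance was compared with a chi-square distribution under Poisson error and under the trended negative binomial dispersion, with Benjamini-Hochberg adjustment over 14453 genes at 0.05. The procedure was also run on simulated counts with drops planted in replicate 3. Its outcome is not given here and does not show how the tests perform on these data. Ratios used log2(TPM + 0.01) and exact sign-flip permutation. DESeq2 1.42.0 size factors were an alternative. Other alternatives were GENCODE 29 exon lengths (matched by symbol for 23873 entries, deposited lengths otherwise), CPM, a pseudocount of 1 TPM, other filters, rounding and dispersions, and leaving out each replicate. The 9 genes and all lists were chosen with earlier results of these data known. Named genes were the 9, the 3 highest of each list, those passing the negative binomial test and the 5 nearest in pattern to the gene with the widest range; UHRF1's nearest genes and other listed genes were added after their values were seen. The labels do not say which replicates were grown or sequenced together, so p-values measure the spread of these libraries alone. Results for 1 listed gene are not reported here.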

Additional observations from a re-analysis of the deposited data

How the results depend on the processing

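Of 456 alternative values, 370 were counted as the same. For this a ratio had to keep its direction and a test of a single gene its side of the threshold. A level had to move less than the SD, and a count had to stay within a fixed fold. The order of the 9 genes was judged by its number of separate pairs alone, and the order itself changed with GENCODE lengths and on CPM. Direction turned in 2 ratios: DNMT1 over DNMT3B was −0.78 with GENCODE lengths, and summed DNMT over summed TET was −0.088 on CPM, since CPM leaves length out. Leaving out each replicate gave 1180 to 5453 genes and 0 to 5 of the 9 beyond Poisson error, and 25 to 94 genes (190 with all libraries) and 0 to 1 of the 9 beyond the trended dispersion. Poisson calls then ranged over 0 to 1 methyltransferase relatives, 0 to 6 maintenance partners, 0 to 4 readers, 0 to 2 NuRD genes, 2 to 5 TET partners, 0 to 5 repair genes, 0 to 5 methyl donor genes, 2 to 11 S phase genes, 1 to 10 G2 and mitosis genes, 1 to 2 imprinted genes, 1 to 3 genes often methylated in breast cancer and 0 to 1 basal markers. Negative binomial calls ranged over 0 to 1 of the TET partners, 0 to 2 of the S phase genes (6 with all libraries) and 0 of the G2 and mitosis genes in each case (2 with all). The counts over all genes and over the 9 genes were lowest without replicate 3; the count of the 9 against the trended dispersion was 0 also without replicate 2. With a common dispersion 283 genes passed. With a count minimum of 1, 2 methyltransferase relatives, 5 basal and 3 other-cell markers were detected; with 20, 1 germline gene; without a replicate, 1 to 2 other-cell markers. No paired analysis was possible because there is only 1 group. Counts limit TET1, at 36 to 64 per library.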
